A study of Microtus ochrogaster with 34 samples.

Results

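The 49 genes described here were among the most abundant transcripts of the vole testis in all 3 reproductive states of the study and differed less than 2-fold between them. They were chosen on the deposited RPKM (reads on a gene divided by its exon length in kilobases and by the size of the library) of 34 testis libraries, out of 23038 genes. A gene was retained when its mean was at least 300 RPKM in each group, when its largest group mean was less than 2 times its smallest, when its coefficient of variation (SD over mean, CV) was above 0.1 over all 34 libraries and when its CV was below 0.6 over the summer libraries. The identifiers ENSMOCG00000000001 to ENSMOCG00000000037 were set aside beforehand, and 1 of them reached the level in every group. Of the 66 other genes that reached 300 RPKM in every group, 16 were left out by the ratio, 1 by the CV over all libraries and 0 by the CV over the summer libraries. Their abundance and their limited difference between groups are therefore what they were chosen for, and the group values given below are a description.

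The animals were wild fossorial water voles, *Arvicola terrestris scherman* (ATS), although the labels name the prairie vole *Microtus ochrogaster*, whose genome served as reference. All were males of reproductive age, taken as a weight of more than 70 g, of wild-type genotype, and 1 testis of each gave 1 polyA RNA library. The 18 summer (S) males were trapped in July and August, and the winter males in January and February. On histology, the 5 W+ males maintained spermatogenesis in winter and the 11 W- males did not, the latter group joining animals with empty seminiferous tubules and animals in an intermediate state. The sources used here do not tell which W- library belongs to which of these states, nor a more exact age of the animals.

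Outside the breeding season, the testis of a seasonal rodent loses most of its germ cells, while the Sertoli, Leydig and peritubular cells remain and make up a larger part of the organ. In any mammalian tissue a small number of transcripts, typically those for protein synthesis, energy metabolism and the cytoskeleton, take a large part of the messenger RNA. In whole testis RNA, fewer cells of a type and less RNA per cell cannot be told apart. None of the 23038 Ensembl identifiers could be paired with a gene symbol (0 matches in the reference table), so that the function of each of the 49 genes, their position and their sequence are not given, and the tissue label was not checked against cell type markers.

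Depth, as counted reads per library, ran from 5534633 to 63857259 in S, from 4960104 to 8576453 in W+ and from 2938627 to 9653984 in W-. The fewest reads on any of the 49 genes in any library was 104, and the median was 2751. Pairs of libraries of a group all differed by more than the sampling noise (lowest chi-square per degree of freedom 2.16).

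The 49 genes lay close to the limits that chose them at both ends. The smallest group mean was 306 RPKM for the least abundant retained gene, and 299 for the nearest gene below the level. The ratio of largest to smallest group mean reached 1.99 among the retained genes, and was 2.05 for the nearest gene past the limit. The lowest CV over all libraries was 0.114, against 0.0992 for the gene left out, whereas the highest CV over the S libraries was 0.239, far from its limit.

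The level of the median gene was 444 RPKM in S, 446 in W+ and 531 in W- males. The group means ran from 306 to 2114 RPKM in S, from 318 to 2065 in W+ and from 309 to 2575 in W-. When all genes outside the identifiers set aside were considered, 345 reached a mean of 300 RPKM in S, 181 in W+ and 190 in W-. The same genes consequently stood at different ranks: their median rank among the 23038 genes was 167 in S, 74 in W+ and 58 in W-, and the best rank was 9, 4 and 3, respectively. W- was the group of highest mean for 32 genes, S for 15 and W+ for 2.

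**Figure D1:**
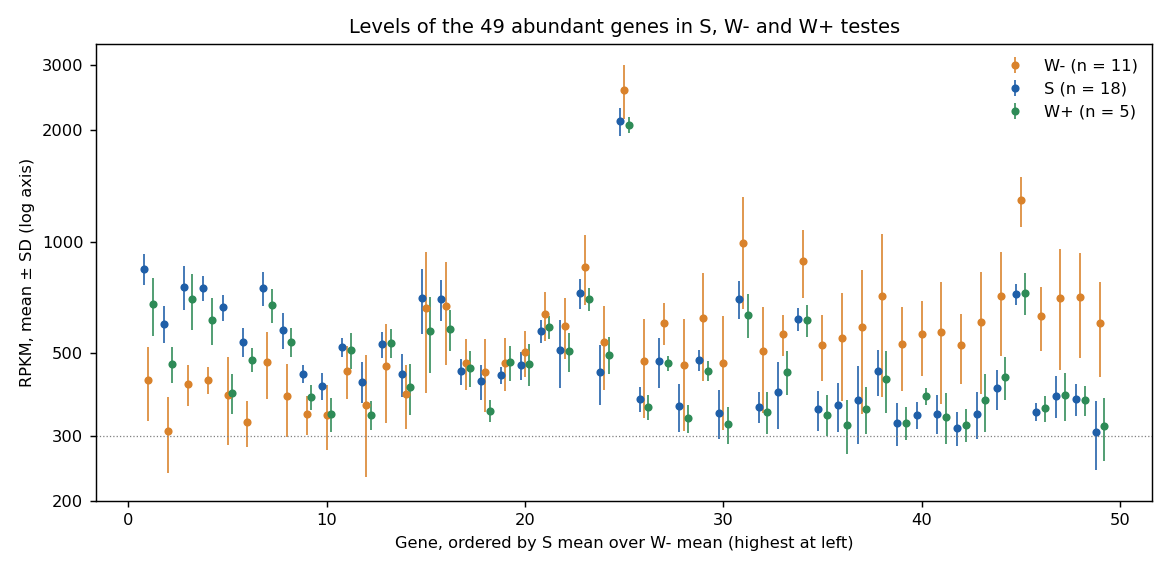
Mean RPKM (log axis, ± SD over libraries) of the 49 genes in S (n = 18), W- (n = 11) and W+ (n = 5) testes, with the genes ordered by S mean over W- mean and the dotted line at 300 RPKM. In 33 genes, on the right, the S mean lies below the W- mean, and the W+ mean lies within 1.2-fold of the S mean in 41 of the 49 genes.

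The most abundant of them, ENSMOCG00000009629, had an exon length of 1543 bases. Its level ranged from 1845 to 2618 RPKM in S (median 2085), from 2173 to 3674 in W- (median 2511), and was 1916, 2029, 2051, 2188 and 2141 in W+ replicates 1 to 5. The S and W- ranges overlapped, and 4 of the 5 W+ libraries were below every W- library. The group means were 2114 ± 181 (SD, n = 18) in S, 2575 ± 431 (n = 11) in W- and 2065 ± 105 (n = 5) in W+. The least abundant by the mean of the 3 group means, ENSMOCG00000019369, had 408 ± 33.2 RPKM in S, 342 ± 68.3 in W- and 343 ± 36.1 in W+. Its values ran from 341 to 470 RPKM in S (median 411), from 258 to 456 in W- (median 320), and were 296, 341, 393, 358 and 325 in W+ replicates 1 to 5. All 3 groups overlapped for this gene.

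The first comparison, S with W-, sets testes in full summer activity against testes without maintained spermatogenesis. The S mean was below the W- mean for 33 of the 49 genes and above it for 16, with S over W- ratios from 0.506 to 1.99 and a median of 0.821. The median log2 difference (S minus W-, on log2(RPKM + 0.1)) was -0.27 over the 49 genes and 0.04 over the 19185 genes tested. The W- mean exceeded the S mean by at least 1.5-fold for 14 genes, the S mean exceeded the W- mean by at least 1.5-fold for 8, and 14 genes were within 1.2-fold. Over all tested genes, 41.5% had S and W- means within 2-fold of each other, the range to which the 49 genes are held by their choice.

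The gene with the highest S over W- ratio was ENSMOCG00000002546, with a short exon length of 270 bases. In S its level ranged from 742 to 995 RPKM (median 826), and in W- from 283 to 567 (median 386). In W+ replicates 1 to 5 it was 606, 590, 873, 725 and 602 RPKM. Every S and every W+ library was above every W- library for this gene. The group means were 845 ± 81.9 RPKM in S, 424 ± 95.7 in W- and 679 ± 121 in W+, a log2 difference of 1.02 ± 0.0899 (SE) between S and W-. At the other end, ENSMOCG00000005011, of 610 bases, ranged from 117 to 394 RPKM in S (median 306) and from 447 to 901 in W- (median 521). Its values in W+ replicates 1 to 5 were 424, 277, 295, 316 and 279 RPKM, so that every S and every W+ library was below every W- library. Its means were 306 ± 64.9 RPKM in S, 605 ± 174 in W- and 318 ± 61.3 in W+, a log2 difference of -0.97 ± 0.14 (SE) between S and W-.

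In the limma fit across all tested genes (adjusted p under 0.05, Benjamini-Hochberg, no minimum fold), 13 of the 49 genes were called higher in S than in W-, where 41.5% of all tested genes were, and 28 were called lower, where 38.5% were. For 4 of the genes every S library was above every W- library (23.0% of tested genes), and for 9 every S library was below (15.1%). As the choice of the genes used these same group means, nothing is read from these counts. The size of the S and W- difference depended on the scaling of the libraries, as detailed below.

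The comparison of W+ with W- concerns winter males that differ in testicular activity. The W+ over W- ratios ran from 0.526 to 1.70 with a median of 0.791, and the median log2 difference was -0.33 over the 49 genes and -0.02 over all tested genes. The W- mean exceeded the W+ mean by at least 1.5-fold for 15 genes, the reverse held for 3, and 15 genes were within 1.2-fold. The same fit called 7 genes higher in W+ (32.5% of tested genes) and 27 lower (31.3%). Every W+ library was above every W- library for 4 genes (19.8%) and below every W- library for 10 (10.4%). Without W- replicates 1 to 4, described below, the fit called 12 genes higher and 20 lower, and the median log2 difference was -0.15. The shares of all tested genes called in that fit are not given here.

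W+ and S males both had active testes but were taken in different seasons. Their levels of these genes are compared here in the deposited values, where the choice held every ratio of group means below 2. The W+ over S ratio lay between 0.589 and 1.13 with a median of 0.969, and 41 of the 49 genes were within 1.2-fold, the other 8 being lower in W+. The median log2 difference was -0.04 over the 49 genes and -0.06 over all tested genes. The share of all tested genes within 1.2-fold is not given here, so closeness is not shown to be a trait of these genes. In the limma fit on the deposited values, 0 of the 49 genes were called higher in W+ (9.32% of tested genes), and 5 were called lower (17.0%). The count of higher calls was also 0 at an unadjusted limma p under 0.05 and 0 by voom. It was 1 without S replicate 10, 22 when scaled by total counted reads and 43 under quantile normalization, so it depended on the scaling. Every W+ library was above every S library for 0 genes (0.839%) and below every S library for 1 gene (5.23%). The 5 calls fell to 1 without W+ replicate 1, to 2 without W+ replicate 2, to 3 without W+ replicate 5 and to 2 without the 4 deepest S libraries, and rose to 9 without W- replicates 1 to 4, which enter the spread of the fit. Shares of all tested genes called in these other fits are not given here.

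The gene whose W+ libraries were all below the S libraries was ENSMOCG00000019677, of 1560 bases, named here after its values were seen. It ranged from 550 to 744 RPKM in S (median 675), and was 334, 369, 462, 412 and 380 RPKM in W+ replicates 1 to 5. In W- it ranged from 266 to 560 RPKM (median 339), which covers all 5 W+ values. The means were 665 ± 53.2 RPKM in S, 391 ± 48.5 in W+ and 385 ± 102 in W-.

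Among the 35 genes whose S and W- means were at least 1.2-fold apart, the W+ mean was nearer to the S mean for 32 and nearer to the W- mean for 3, 1 of which was ENSMOCG00000019677. On a scale from 0 at the W- mean to 1 at the S mean, the median position of W+ was 0.983. The W+ mean lay between the other two for 20 of the genes and beyond the S mean for 15. These positions use the same S and W- means as the comparisons above and add no separate evidence to them. They hold for the deposited values, and the shares over all tested genes are not given here. When scaled by total counted reads, the W+ mean was above the S mean for 47 genes, where it was for 16 as deposited.

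A measure that does not set each library to the same typical gene is the percentage of all counted reads that fell on the 49 genes. It was 2.18% ± 0.0597 (SD, n = 18) in S, 2.61% ± 0.227 (n = 5) in W+ and 3.79% ± 0.419 (n = 11) in W-. The S libraries spanned 2.08% to 2.30% and the W- libraries 3.27% to 4.72%. The W+ libraries 1 to 5 stood at 3.00%, 2.50%, 2.46%, 2.62% and 2.48%. The 3 groups did not overlap, and W+ lay between S and W-. Dividing by total counted reads also shifted the median tested gene in this order, as given below. The order is therefore not a trait of the 49 genes alone. For the shallowest library, W- replicate 5, the share was 3.86%, with a 95% Wilson interval from 3.84% to 3.88% that covers counting error only. Without W- replicates 1 to 4, the W- share was 3.55% ± 0.195 and still above every W+ library.

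**Figure D2:**
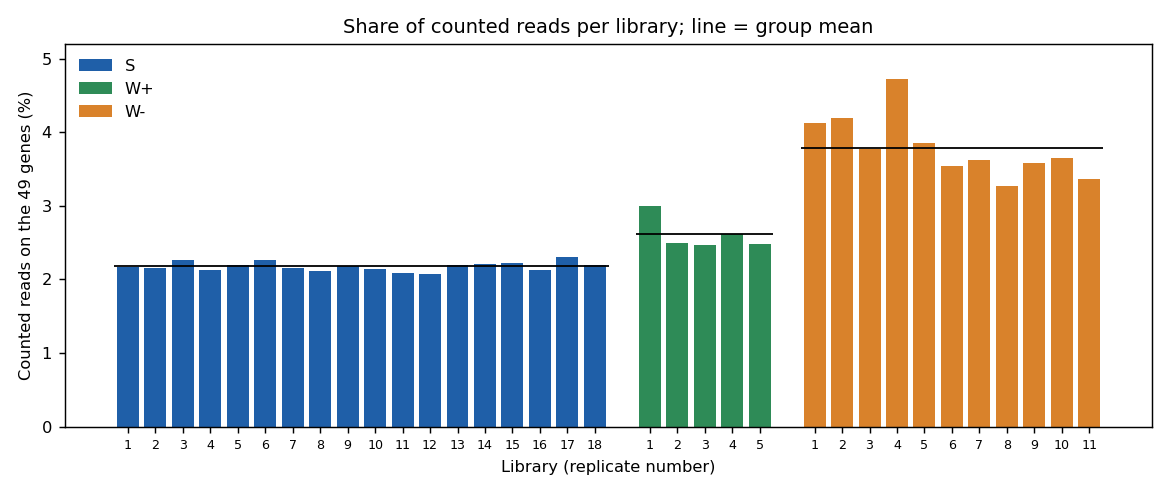
Percentage of counted reads on the 49 genes (bars, from 0) in each library, with a line at the mean of each group. The S bars reach 2.08% to 2.30%, those of W+ 2.46% to 3.00% and those of W- 3.27% to 4.72%.

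The library size behind the deposited RPKM was not the total of counted reads on which this percentage rests. Counted reads per unit of that library size ranged from 1.11 to 1.27 in S, from 0.809 to 0.997 in W+ and from 0.699 to 0.795 in W-. When the recovered reads were divided by the total counted reads and by exon length instead, the median tested gene shifted by -0.59 (log2) between S and W-, by -0.31 between W+ and W- and by 0.31 between W+ and S. Under this scaling, S over W- ratios ran from 0.311 to 1.22 with a median of 0.501, the S mean was below the W- mean for 43 genes in place of 33, and 25 of the 49 genes kept a ratio of largest to smallest group mean below 2. The W+ mean was above the S mean for 47 genes, where it was for 16 in the deposited values, and the median W+ over S ratio was 1.24. The median log2 difference of W+ minus W- over the 49 genes went from -0.33 to -0.69. The same limma fit then called 3 genes higher and 41 lower in S than in W-, 4 higher and 39 lower in W+ than in W-, and 22 higher and 1 lower in W+ than in S. The shares of all tested genes called under this scaling are not given here, so nothing is read from these counts. With trimmed-mean factors, the S mean was below the W- mean for 35 genes, W+ was above S for 31, and 43 genes kept a ratio below 2. The S mean was on the same side of the W- mean as in the deposited values for 39 genes when scaled by total counted reads and for 47 with trimmed-mean factors. The order of the 49 genes by S over W- was almost unaffected, since a scaling multiplies all genes of a library alike.

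**Figure D3:**
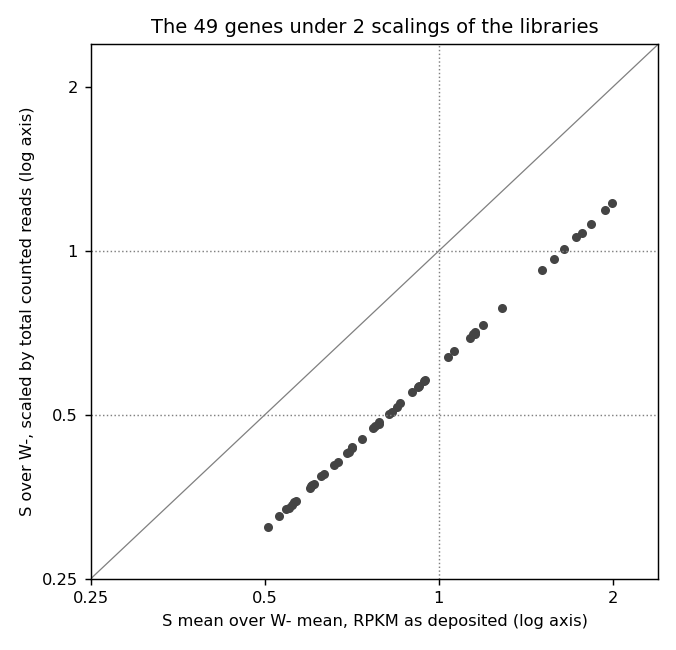
S mean over W- mean of the 49 genes as deposited (x, log axis) and after scaling by total counted reads (y, log axis), with the diagonal at equal ratios and dotted lines at 0.5 and 1. All points lie below the diagonal, and the number of genes with S below W- goes from 33 to 43.

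The spread between animals of a group differed among the groups. The median CV of the 49 genes was 11.0% in S, 11.3% in W+ and 22.6% in W-, against 23.3%, 28.8% and 34.8% over all tested genes. In the 16 genes of at least 300 RPKM in every group that were left out by the ratio, the median CV was 14.6%, 19.3% and 30.2%, so that genes of like abundance also had their largest spread in W-. The CV was larger in W- than in S for 45 of the 49 genes (73.0% of tested genes) and larger in W+ than in S for 28 (62.0%). The CV over S entered the choice of the genes, but the highest value, 23.9%, was far below its limit. The CV within W- reached 46.8% in 1 gene, of 285 bases, whose W- values ran from 432 to 1553 RPKM (median 550).

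The wider spread of W- moved with certain libraries. For each library, the deviation of each gene from its group mean was computed on the log2 scale, and the median over the 49 genes was taken. This median was 0.45, 0.29, 0.07 and 0.53 in W- replicates 1 to 4, which held 42, 44, 35 and 43 of the genes above the group mean. It was -0.04 in W- replicate 5, with 21 genes above the mean, and between -0.34 and -0.14 in W- replicates 6 to 11, with 5 to 13 genes above it. The first 4 were also the W- libraries with the most counted reads, 9004888 to 9653984, while replicates 6 to 11 had 5081433 to 8019103. The median deviation over all tested genes was 0.06 to 0.11 in replicates 1 to 4 and -0.06 to -0.03 in replicates 6 to 11. The part of depth or of the histological state in these deviations was not tested. Without W- replicates 1 to 4, the median W- CV of the 49 genes was 13.6% (n = 7), and it exceeded the S value for 30 genes (54.3% of tested genes). The S mean was then below the W- mean for 31 genes, with a median ratio of 0.912.

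**Figure D4:**
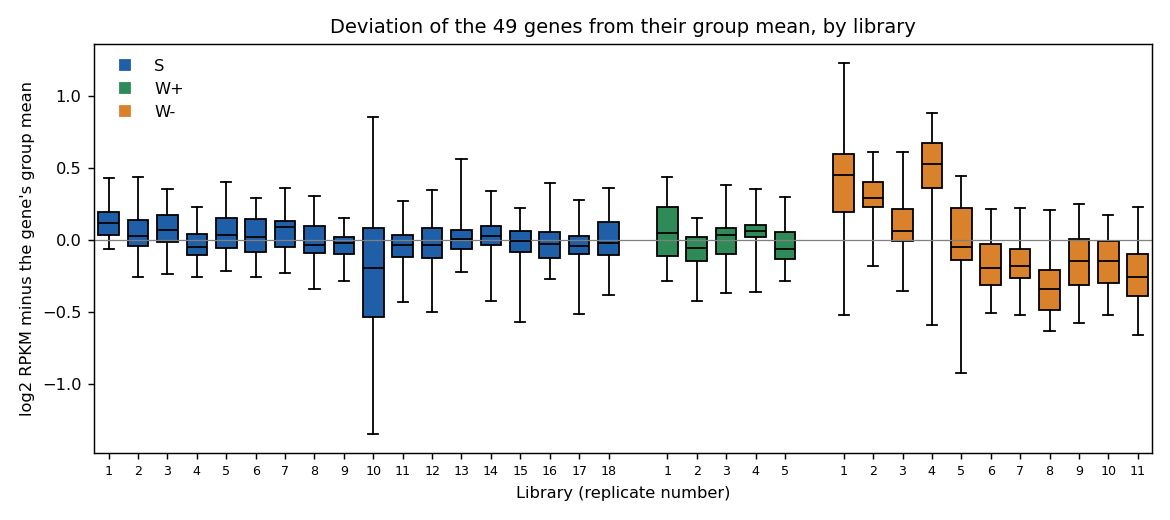
Log2 deviation of the 49 genes from their group mean in each library (box: quartiles and median, whiskers: lowest and highest gene). W- replicates 1, 2 and 4 stand above 0, with medians from 0.29 to 0.53, W- replicates 6 to 11 stand below it, and S replicate 10 has the widest box and whiskers of the S libraries.

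In S, 1 library stood apart. The deviations in S replicate 10 ran from -1.34 to 0.85, with a median of -0.19. It was the lowest S library for 21 of the 49 genes and the highest for 9, where it was the lowest for 15.8% and the highest for 13.1% of all tested genes. The lowest of these values was that of ENSMOCG00000005011, at 117 RPKM, where the other S libraries had 255 to 394. S replicate 10 had 5534633 counted reads, the fewest of the S libraries, and the part of depth was not tested. Without it, the median CV in S was 8.71%, and the W- CV was larger for all 49 genes. The library was left out after its values were seen, and all W- libraries were kept. The share over all tested genes is not given here, so nothing is read from this count.

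How far the 49 genes moved together among animals was described in S and W-, and not in W+ with its 5 libraries. The median Pearson correlation between pairs of the genes was 0.07 over the 18 S libraries and 0.59 over the 11 W- libraries, against 0.005 and 0.019 between all tested genes. It was 0.29 over the 7 W- libraries other than replicates 1 to 4. In W- it was 0.76 among the genes with S below W- and 0.50 among those with S above W-. Without replicates 1 to 4 these values were 0.46 and 0.08, and in S they were 0.10 and 0.20. The split uses the group means of these same libraries, so nothing is read from the difference between the lists. The correlations were not particular to the 49 genes. Among all genes of at least 300 RPKM in the group concerned, these 49 included, the median was 0.25 in S and 0.81 in W-. Both were above that of the 49 genes, as was the 0.44 in W- without replicates 1 to 4. These values describe genes that share their libraries and their scaling, and they carry no test.

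The exon lengths, which the choice did not use directly, were short. The length recovered from the deposited values ranged from 78 to 3517 bases, with a median of 702, where the median of all genes above 0 was 1606. Of the 49 genes, 40 were shorter than that median and 7 were shorter than 300 bases. As RPKM divides by this length, short gene models reach the level of 300 RPKM with fewer reads than long ones. The lengths of other genes of like abundance were not compared, so shortness is not shown to be a trait of these 49 genes.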

How the data were processed

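Testis RNA-seq libraries of 18 S, 11 W- and 5 W+ ATS males were grouped by their sample titles, 1 library per animal. The authors trimmed single-end reads with trim_galore 0.6.10, controlled them with FastQC 0.12.1, mapped them to the MicOch1 assembly with Hisat2 and used HTSeq-count for gene counts. The authors normalized with DESeq2 and deposited the RPKM computed in that step. The sources used here do not tell the annotation release, strand setting or treatment of reads with multiple hits, so near-identical copies could share reads.

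The deposited RPKM were used as such for levels, ratios and the test. In the 20821 genes that were not 0 throughout, 100% of values corresponded to whole reads within 0.02 of a read. This gave back counted reads and exon lengths. For each gene the shortest length that made its values whole was taken. For genes with reads in few libraries, the 100% is therefore a weak check and the length can be too short. The recovery and the fit were tested on simulated data. Differences were fitted with limma 3.58.1 (R 4.3.3, eBayes with trend) on log2(RPKM + 0.1), all 34 libraries in one fit without block, over 19185 genes with at least 0.1 RPKM in at least 5 libraries, with calls at a Benjamini-Hochberg adjusted p under 0.05. All 49 genes passed this filter. P-values set the difference of group means against the spread between animals, and fold changes are on the scale with the pseudocount. A single spread per gene was used for all groups, although the median CV was largest in W-. The W- libraries therefore enter the p-values of W+ against S.

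The genes, the rule that chose them and the tests were set with earlier results of these data known. The identifiers named were those with the highest and lowest S over W- ratio and with the highest and lowest mean of the 3 group means, and 1 further identifier was named after its values were seen. Another 3 genes, given without identifier or examined only for outlying W+ libraries, were also picked after their values were seen. Gene lists and cell type markers could not be applied without symbols. Alternatives covered the pseudocount, filter, scaling, test, samples, replicate block, fold threshold and limits of the choice. The fit and the CV without W- replicates 1 to 4, and the CV without S replicate 10, were added after the data were seen.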

Additional observations from a re-analysis of the deposited data

Results flagged for a closer look

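In the W+ group, 10 measures were examined for 1 library far from the other 4 (the gap to the nearest library, as a share of the whole range, above 0.71). Of these, 8 were levels of single genes, 4 of which were picked after their values were seen, among them those described here by their W- CV and by their W+ over S ratio. Chance flags about 1 in 20 groups when a measure is not picked for its values, so that this rate does not hold for these 4. The percentage of counted reads on the 49 genes had a gap of 0.713, from W+ replicate 1 at 3.00% to the next library at 2.62%. W+ replicate 1 was also apart for ENSMOCG00000005011, at 424 RPKM against 316 in the next library (0.738), and for the gene with the largest CV in W-, at 572 RPKM against 405 (0.841). For the gene with the highest W+ over S ratio, W+ replicate 3 was apart on the low side, at 343 RPKM against 450 (0.727). Among all 49 genes, 5 passed this limit in W+. The cause of these deviations was not tested.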

How the results depend on the processing

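The counts of calls in this section are given without the shares of all tested genes under the same settings. They do not set the 49 genes apart from other genes. Requiring a log2 fold change beyond 1 left 1 gene higher and 0 lower in S than in W-, and 0 in either direction for both W+ comparisons, by construction of the choice. Scaling by total counted reads gave 3 genes higher in S than in W-, 4 higher in W+ than in W-, and 22 higher and 1 lower in W+ than in S. Quantile normalization gave 8 higher in S than in W-, and 43 higher and 1 lower in W+ than in S. Of genes lower in W+ when set against S, trimmed-mean scaling gave 1, a fit of only these 2 groups 9, and the fit without the 4 deepest S libraries 2. Without W- replicates 1 to 4, 12 were higher in W+ than in W- and 9 lower in W+ than in S. Leaving out each library in turn gave 11 to 14 higher and 26 to 29 lower in S than in W-, 7 to 9 and 24 to 27 in W+ than in W-, and 0 to 1 and 1 to 7 in W+ than in S, the 1 without S replicate 10. The choice itself gave 47 to 51 genes in these fits, 115 at a level of 200 RPKM, 23 at 400 RPKM and 25 with a ratio under 1.5. Scaled by total counted reads it gave 43 genes, of which 24 were among the 49, and by group medians 49, of which 45 were. With each library of a group left out in turn, the mean share of reads was 2.17% to 2.18% in S. It was 2.51% to 2.65% in W+ and 3.70% to 3.84% in W-. As a share of summed RPKM, the mean over all libraries of each group was 3.68% in S, 4.58% in W+ and 6.60% in W-.

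Same-numbered animals did not deviate together (21 pairs, correlations from -0.16 to 0.14, 1 above 0.1, 2 matching best with their own number), and nothing in the labels pairs them. With the replicate number as a block, 13 genes were higher and 27 lower in S than in W-, 7 and 26 in W+ than in W-, and 0 and 9 in W+ than in S. The other pseudocounts, filters, voom and the fit without trend kept every count within 1.5 times. With 5 W+ libraries, calls against S moved with single animals, and the lowest count on any of the 49 genes was 104 reads.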
